A study of Mus musculus with 16 samples.

Results

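Polyamines are small positively charged molecules made from the amino acids ornithine and methionine, and 10 genes of their metabolism were followed here across denervated and control skeletal muscle of the mouse. The genes were taken by name: the AdoMet decarboxylases Amd1 and Amd2, the ornithine decarboxylase Odc1, the spermidine synthase Srm, the spermine synthase Sms, the spermine oxidase Smox, the acetylpolyamine oxidase Paox, the spermidine/spermine acetyltransferase Sat1, the antizyme Oaz1 and the antizyme inhibitor Azin1. These were 10 of 55487 genes in the tables, each with 1 identifier, and all 10 passed the filter on low counts. Amd1 and Amd2 are near-identical copies, so their counts were added and the 10 genes were tested as 9 units.

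The study set male C57BL/6J mice whose sciatic nerve had been cut on one side (DEN) against mice in which the nerve was located and left intact (sham), 21 days after surgery. The labels gave the genotype as C57BL/6 with no transgene. They gave no age. There were 4 groups of 4 libraries. DEN fibers and sham fibers were pools of single, non-contracted fibers freed from the extensor digitorum longus (EDL) by collagenase. DEN whole muscle and sham whole muscle were entire tibialis anterior (TA) muscles. Fibers and whole muscle thus differed in the muscle, the digestion and the cells retained, which cannot be told apart here. According to the study, the replicates were different mice. No label said whether an EDL and a TA came from the same mouse.

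Odc1 makes putrescine from ornithine and is the classical control point of the pathway. Amd1 decarboxylates S-adenosylmethionine, and the product donates the aminopropyl groups with which Srm makes spermidine and Sms makes spermine. The way back runs through Smox, which oxidizes spermine to spermidine, or through Sat1, which acetylates spermidine and spermine for export or for oxidation by Paox. Oaz1 binds the Odc1 protein and sends it to the proteasome, and Azin1, an inactive relative of Odc1, captures antizyme. In skeletal muscle, polyamine metabolism is known to respond to androgens and to changes in muscle mass.

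Amd2 is shown first because its identity decides how Amd counts are read. In GRCm38, Amd1 (ENSMUSG00000075232) lies on the minus strand of chromosome 10 from 40287458 to 40302186 and has up to 8 exons in a transcript. Amd2 (ENSMUSG00000063953) lies on the same strand of chromosome 10 from 35708675 to 35711892 and is a single exon. Their coding sequences were 1002 bases each and differed at 1 base, an identity of 99.9%, with a longest identical run of 795 bases. A stretch of 90 coding bases, from coding base 751 to 840 of the reference transcripts (GENCODE, GRCm38), is given for both copies, with the differing base in capitals.
Amd1: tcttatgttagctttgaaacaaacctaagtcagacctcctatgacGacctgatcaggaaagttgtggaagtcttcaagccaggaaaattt
Amd2: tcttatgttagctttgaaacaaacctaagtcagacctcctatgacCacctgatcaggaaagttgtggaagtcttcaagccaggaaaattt

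The sequences around the annotated starts show where the likeness of the copies ends. These RefSeq windows (GRCm38.p6) run from 250 bases before to 50 bases after the start, on chr10:40302139-40302438 (minus strand) for Amd1 and chr10:35711842-35712141 (minus strand) for Amd2, and the capitals mark the longest run that both windows hold.
Amd1: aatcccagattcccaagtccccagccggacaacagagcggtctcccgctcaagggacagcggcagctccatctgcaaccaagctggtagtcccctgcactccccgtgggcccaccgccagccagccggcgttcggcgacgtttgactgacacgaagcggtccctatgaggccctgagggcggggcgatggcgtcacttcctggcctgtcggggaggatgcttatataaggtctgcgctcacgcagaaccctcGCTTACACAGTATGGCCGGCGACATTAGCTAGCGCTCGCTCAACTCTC
Amd2: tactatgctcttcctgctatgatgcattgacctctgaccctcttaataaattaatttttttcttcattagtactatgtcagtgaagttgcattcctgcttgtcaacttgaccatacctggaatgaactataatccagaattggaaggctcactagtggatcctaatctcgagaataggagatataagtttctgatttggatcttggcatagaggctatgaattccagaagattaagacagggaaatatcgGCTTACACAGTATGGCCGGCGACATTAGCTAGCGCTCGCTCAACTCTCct
The shared run was 48 bases long and began at base 253 of the Amd1 window and at base 251 of the Amd2 window, the first base after the 250 upstream ones, so it lay within the transcribed part of both. The GC content of the windows was 63% for Amd1 and 40.7% for Amd2.

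The start window of Smox is shown because Amd1+Amd2 and Smox had the 2 largest decreases among the 9 units. It lies on chr2:131491612-131491911 (plus strand, GRCm38.p6), and capitals mark GGGCGG on either strand.
Smox: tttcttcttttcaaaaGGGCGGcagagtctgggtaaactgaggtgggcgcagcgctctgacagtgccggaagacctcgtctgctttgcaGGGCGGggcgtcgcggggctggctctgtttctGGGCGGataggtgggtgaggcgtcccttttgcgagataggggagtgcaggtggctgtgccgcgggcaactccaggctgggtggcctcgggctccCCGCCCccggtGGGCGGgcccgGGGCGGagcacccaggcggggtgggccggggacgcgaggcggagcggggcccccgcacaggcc
GGGCGG, searched on both strands, was found 6 times in this window, 4 times in that of Odc1, 2 times in that of Sat1, once in that of Amd1 and not in that of Amd2. Of all 32817 mouse windows of this length, 35.6% held it. The windows of Amd1, Amd2, Smox, Odc1 and Sat1 held no match to the motif CACGTG (7.15% of all windows did). They held none to CAGCTG (16.3% did) and none to TATAAA (13.6% did). Among the other windows, Oaz1 held TATAAA once and no GGGCGG, and both windows of Paox held GGGCGG 3 times. Of the 2 windows of Sms, 1 held GGGCGG 4 times and the other held CACGTG once and no GGGCGG. A window was given for 8 of the 10 genes. Such a match is a description of letters and not of a bound site.

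The libraries held 47570214 to 62297405 counts each. Deposited values were read counts per gene, RPM (counts scaled to a common library total) and RPKM (RPM also scaled to gene length), and levels are compared between genes as RPKM. Chrna1, a subunit of the muscle acetylcholine receptor that is known to rise when a muscle loses its nerve, was at 238 to 332 RPM in DEN fibers and 14.9 to 18.3 RPM in sham fibers, and at 408 to 530 RPM in DEN whole muscle and 6 to 7.42 RPM in sham whole muscle, so no library went against its surgery label. The muscle fiber markers Acta1 and Ckm were present in all 16 libraries. The summed level of 7 muscle fiber markers was 86587 to 101946 RPM in DEN fibers and 147710 to 174169 RPM in sham fibers. In whole muscle this sum was 113683 to 122018 RPM in DEN and 168705 to 189912 RPM in sham. These markers did not move together. In fibers Myh4 averaged 10336 RPM in DEN and 49247 RPM in sham, Acta1 26685 and 25587 RPM, and Myh1 10416 and 5387 RPM. The other fiber markers averaged lower in DEN fibers than in sham fibers. The summed level of 12 macrophage markers was 183 to 260 RPM in DEN fibers and 34.4 to 70.8 RPM in sham fibers, and 225 to 289 RPM in DEN whole muscle and 80.7 to 162 RPM in sham whole muscle. All 12 were found, and none was at 0 throughout a group. The summed level of 6 Schwann cell markers was 10.6 to 33.5 RPM in DEN fibers and 66.7 to 130 RPM in sham fibers, and 14 to 18.7 RPM in DEN whole muscle and 22.7 to 32.2 RPM in sham whole muscle. That of 6 muscle stem cell markers was 260 to 283 RPM in DEN fibers and 146 to 169 RPM in sham fibers. It overlapped in whole muscle. Itga7 made up most of this sum, with a mean of 206 RPM in DEN fibers and 116 RPM in sham fibers. Pax7 averaged 3.8 RPM in DEN fibers and 1.86 RPM in sham fibers, and Myf5 3.26 and 2.91 RPM. Endothelial (6) and tenocyte (4) marker sums did not overlap in whole muscle, at 274 to 315 RPM in DEN and 378 to 399 RPM in sham for endothelial markers and 178 to 264 RPM in DEN and 33.8 to 122 RPM in sham for tenocyte markers. These marker sums moved with the surgery, and their part in the results was not tested. A change in bulk RNA also cannot tell fewer cells of a type from less RNA per cell. Between preparations, marker sums of other cells were not uniformly lower in fibers. Endothelial sums averaged 426 RPM in DEN fibers and 298 RPM in DEN whole muscle, and 400 and 390 RPM in sham. Schwann sums averaged 18.2 and 15.6 RPM in DEN, and 93.2 and 27.6 RPM in sham. Macrophage sums were lower in fibers, at 209 and 248 RPM in DEN and 48 and 107 RPM in sham.

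Scaling decided the direction of several small changes, so it is given before them. The log2 fold changes come from edgeR with TMM factors, which place the median of all tested genes at 0.01 in fibers and 0.02 in whole muscle. With library totals alone the medians were 0.49 and 0.45, and the log2 fold changes of the members between DEN and sham moved up by about as much. Changes are reported relative to the TMM median. Large decreases kept their sign under either scaling, and the members whose sign changed are named below.

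Amd1 and Amd2 together had the largest decrease of the pathway in DEN muscle. In fibers, the sum Amd1+Amd2 had 47, 44.6, 43.6 and 36.1 RPM in DEN and 388, 308, 374 and 339 RPM in sham. In whole muscle it had 75.7, 87.5, 68.8 and 64.3 RPM in DEN and 1181, 1058, 1255 and 991 RPM in sham. The groups were far from overlapping in either preparation. The log2 fold change, DEN over sham, was -3.54 in fibers (SE 0.13, edgeR adjusted p = 1e-07), an 11.6-fold lower level. It was -4.35 in whole muscle (SE 0.11, edgeR adjusted p = 4e-10), a 20.4-fold lower level.

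The rows of both copies showed the decrease. Amd1 averaged 36.4 ± 4 RPM in DEN fibers and 298 ± 30 RPM in sham fibers, and 62.4 ± 8.4 RPM in DEN whole muscle and 947 ± 102 RPM in sham whole muscle (SD, n = 4 each). Amd2 averaged 6.42 ± 0.77 RPM in DEN fibers and 54.7 ± 5.4 RPM in sham fibers, and 11.6 ± 1.7 RPM in DEN whole muscle and 175 ± 18 RPM in sham whole muscle. As separate rows, their log2 fold changes were -3.53 for Amd1 and -3.58 for Amd2 in fibers, and -4.35 for Amd1 and -4.34 for Amd2 in whole muscle. These rows are not independent, since 64% of the read-length windows of Amd1 and 72.6% of those of Amd2 occur in the other copy, and a read that matches both was placed on 1 of them.

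Amd2 took nearly the same share of the Amd1 plus Amd2 counts in every library, between 14.6% and 16%. The share was 15% ± 0.401 in DEN fibers and 15.5% ± 0.148 in sham fibers (SD, n = 4 each), a difference of -0.521 percentage points (exact permutation test, two-sided, p = 0.0571, adjusted over 2 tests 0.114). It was 15.7% ± 0.256 in DEN whole muscle and 15.6% ± 0.13 in sham whole muscle, a difference of 0.129 points (exact permutation p = 0.4, adjusted 0.4). The smallest p that 4 against 4 libraries allow is 0.0286. The exact (Clopper-Pearson) 95% intervals, which cover counting error alone, ran from 13.1% to 16.3% for the shallowest Amd library, a DEN fiber library with 1580 Amd1 and 271 Amd2 counts. The share of reads that truly came from Amd2 cannot be told from these counts.

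The more abundant pseudogene rows of Amd were also lower in DEN. Amd-ps3 averaged 2.03 RPM in DEN fibers and 16.2 RPM in sham fibers, and 3.3 RPM in DEN whole muscle and 49.8 RPM in sham whole muscle. Amd-ps4 averaged 1.48 RPM in DEN fibers and 10.4 RPM in sham fibers, and 1.98 RPM in DEN whole muscle and 32.2 RPM in sham whole muscle. The remaining pseudogene rows were low: Amd-ps1 had at most 63 counts in a library, Amd-ps7 at most 18, Amd-ps5 at most 8 and Amd-ps6 none. Together the 6 rows held 7.66% ± 0.76 of the counts of Amd1, Amd2 and their pseudogenes for DEN fibers, 7.09% ± 0.34 for sham fibers, 6.71% ± 0.4 for DEN whole muscle and 6.89% ± 0.39 for sham whole muscle (SD, n = 4 each). Amd1 shares 22.7% of its windows with Amd-ps3 and 15.1% with Amd-ps4, so reads of Amd1 and of these loci cannot be fully told apart.

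**Figure D1:**
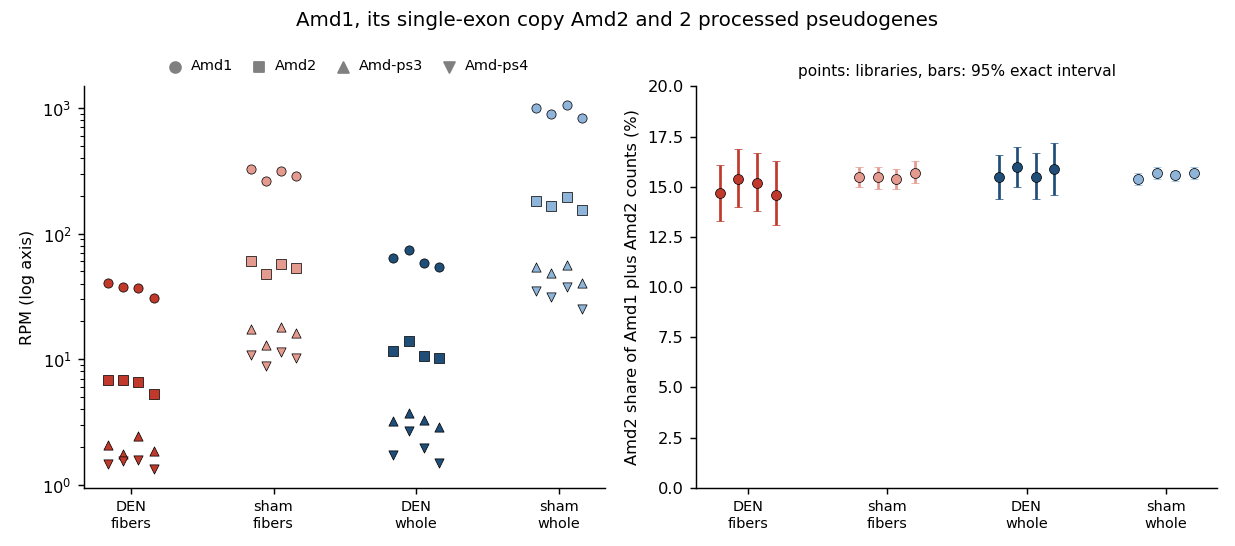
Left, RPM (log axis) of Amd1, Amd2, Amd-ps3 and Amd-ps4 in each of 4 libraries per group. Right, Amd2 share of the Amd1 plus Amd2 counts in percent, with exact 95% intervals. The rows shift in parallel between groups, and the share stays between 14.6% and 16% in all 16 libraries.

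Smox, which turns spermine back into spermidine with release of hydrogen peroxide, fell as far as Amd1 in fibers. It had 27.8, 30.6, 26.3 and 24.6 RPM in DEN fibers and 204, 177, 219 and 258 RPM in sham fibers. Whole muscle had 45.3, 52.9, 45.5 and 44.3 RPM in DEN and 444, 393, 514 and 470 RPM in sham. No DEN library came near a sham library. The log2 fold change was -3.46 in fibers (SE 0.14, edgeR adjusted p = 1.6e-07) and -3.71 in whole muscle (SE 0.09, edgeR adjusted p = 3.9e-10). No window of the read length in Smox occurred in another gene. Smox (ENSMUSG00000027333) lies on chromosome 2 from 131491496 to 131525922, on the plus strand.

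Odc1, the putrescine-forming enzyme, moved the other way. It had 284, 267, 267 and 256 RPM in DEN fibers and 159, 157, 156 and 138 RPM in sham fibers. In whole muscle it had 360, 318, 344 and 356 RPM in DEN and 107, 84.3, 155 and 120 RPM in sham. All DEN libraries lay above all sham libraries of their preparation. The log2 fold change was 0.33 in fibers (SE 0.08, edgeR adjusted p = 0.0072) and 1.13 in whole muscle (SE 0.15, edgeR adjusted p = 6.9e-05). Odc1 (ENSMUSG00000011179, chromosome 12, 17544794 to 17551505, plus strand) shares 9.9% of its windows with other genes, and the 7 rows that share most held 8.75% ± 0.2 of joint counts for DEN fibers, 8.14% ± 0.24 for sham fibers, 8.42% ± 0.14 for DEN whole muscle and 8.73% ± 0.4 for sham whole muscle.

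The order of both decarboxylases by level was not the same in DEN and sham. Per length, Amd1 was at 10.3 ± 1.1 RPKM in DEN fibers and 84 ± 8.6 RPKM in sham fibers, against 78.9 ± 3.3 RPKM of Odc1 in DEN fibers and 44.8 ± 2.9 RPKM in sham fibers. In whole muscle Amd1 was at 17.6 ± 2.4 RPKM in DEN and 267 ± 29 RPKM in sham, and Odc1 at 101 ± 5.6 RPKM in DEN and 34.2 ± 8.7 RPKM in sham (SD, n = 4 each). Amd1 was the lower of the pair in both DEN groups and the higher in both sham groups.

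The aminopropyltransferases Srm and Sms had smaller differences. Srm had 6.58, 7.37, 6.72 and 6.65 RPM in DEN fibers and 4.06, 5.43, 4.58 and 4.22 RPM in sham fibers. Whole muscle values were 7.46, 9.16, 7.66 and 8.82 RPM in DEN and 4.18, 3.53, 3.68 and 3.94 RPM in sham. Its log2 fold change was 0.10 in fibers (SE 0.10, edgeR adjusted p = 0.47) and 0.68 in whole muscle (SE 0.09, edgeR adjusted p = 4.9e-05). Srm therefore passed in whole muscle, and in fibers its RPM values did not overlap although the TMM-scaled change did not pass.

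Sms had 125, 122, 127 and 119 RPM in DEN fibers and 65.7, 66.8, 75.5 and 87.6 RPM in sham fibers. Whole muscle values were 129, 118, 132 and 128 RPM in DEN and 82.5, 94.7, 107 and 102 RPM in sham. Its log2 fold change was 0.25 in fibers (SE 0.09, edgeR adjusted p = 0.038) and -0.03 in whole muscle (SE 0.08, edgeR adjusted p = 0.73). The fiber call was fragile: without any single one of DEN fiber replicates 1, 2 and 4 or sham fiber replicates 1, 2 and 3 the adjusted p was 0.073 to 0.1, it was 0.053 with DESeq2 size factors, and the call was also lost in the DESeq2 Wald test (adjusted p = 0.05). In whole muscle the sign turned with library totals alone (0.40, edgeR adjusted p = 0.00064). The rows Sms-ps and Gm6292, which share sequence with Sms, held 17.2% ± 0.57 of joint counts for DEN fibers, 14.3% ± 0.59 for sham fibers, 15.3% ± 0.57 for DEN whole muscle and 13.2% ± 0.69 for sham whole muscle.

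Sat1, which acetylates spermidine and spermine, was the member whose 2 preparations disagreed. In fibers it had 170, 173, 169 and 153 RPM in DEN and 214, 283, 225 and 183 RPM in sham. Whole muscle had 24.4, 24.2, 24 and 25.9 RPM in DEN and 12.9, 10.1, 9.09 and 11.5 RPM in sham. DEN libraries lay below sham libraries in fibers and above them in whole muscle, without overlap in either. The log2 fold change was -0.93 in fibers (SE 0.12, edgeR adjusted p = 0.00011) and 0.75 in whole muscle (SE 0.09, edgeR adjusted p = 2.6e-05), and with library totals alone it was -0.44 and 1.17, so both directions held.

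Paox, which oxidizes acetylated polyamines in peroxisomes, had 4.55, 4.23, 4.97 and 4.37 RPM in DEN fibers and 2.54, 2.65, 2.2 and 2.64 RPM in sham fibers. In whole muscle it had 5.33, 4.63, 5.07 and 4.3 RPM in DEN and 4.06, 3.59, 3.23 and 3.63 RPM in sham. The log2 fold change was 0.36 in fibers (SE 0.11, edgeR adjusted p = 0.02) and -0.01 in whole muscle (SE 0.10, edgeR adjusted p = 0.92, with 0.42 and 0.0034 when library totals alone were used). Paox shares 22.7% of its windows with the predicted gene Gm19680, which held 28.3% ± 1.7 of joint counts for DEN fibers, 31.7% ± 3.4 for sham fibers, 27.3% ± 1.9 for DEN whole muscle and 25.8% ± 1.5 for sham whole muscle.

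The RNAs of the protein regulators of Odc1 had small differences. Oaz1 had 368, 376, 366 and 370 RPM in DEN fibers and 263, 252, 281 and 300 RPM in sham fibers. Whole muscle values were 525, 504, 505 and 515 RPM in DEN and 314, 299, 298 and 314 RPM in sham. Its log2 fold change was -0.05 in fibers (SE 0.08, edgeR adjusted p = 0.61) and 0.31 in whole muscle (SE 0.04, edgeR adjusted p = 4.2e-05). In fibers the sign turned with library totals alone (0.44, edgeR adjusted p = 0.00039). The row Oaz1-ps held 16.4% ± 0.61 of joint counts for DEN fibers, 16.3% ± 0.097 for sham fibers, 16.7% ± 0.43 for DEN whole muscle and 16.4% ± 0.35 for sham whole muscle.

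Azin1 had 89.4, 101, 86.6 and 92.8 RPM in DEN fibers and 100, 94.8, 74.7 and 59.5 RPM in sham fibers, which overlap. Whole muscle had 47.1, 43.1, 44.1 and 51.1 RPM in DEN and 36.1, 33.1, 36.6 and 33.7 RPM in sham. Its log2 fold change was -0.33 in fibers (SE 0.17, edgeR adjusted p = 0.13) and -0.02 in whole muscle (SE 0.06, edgeR adjusted p = 0.79), and with library totals alone 0.17 (0.33) and 0.41 (0.00012). Without sham fiber replicate 4, its lowest sham fiber library, the fiber change was -0.45 and passed (edgeR adjusted p = 0.027).

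**Figure D2:**
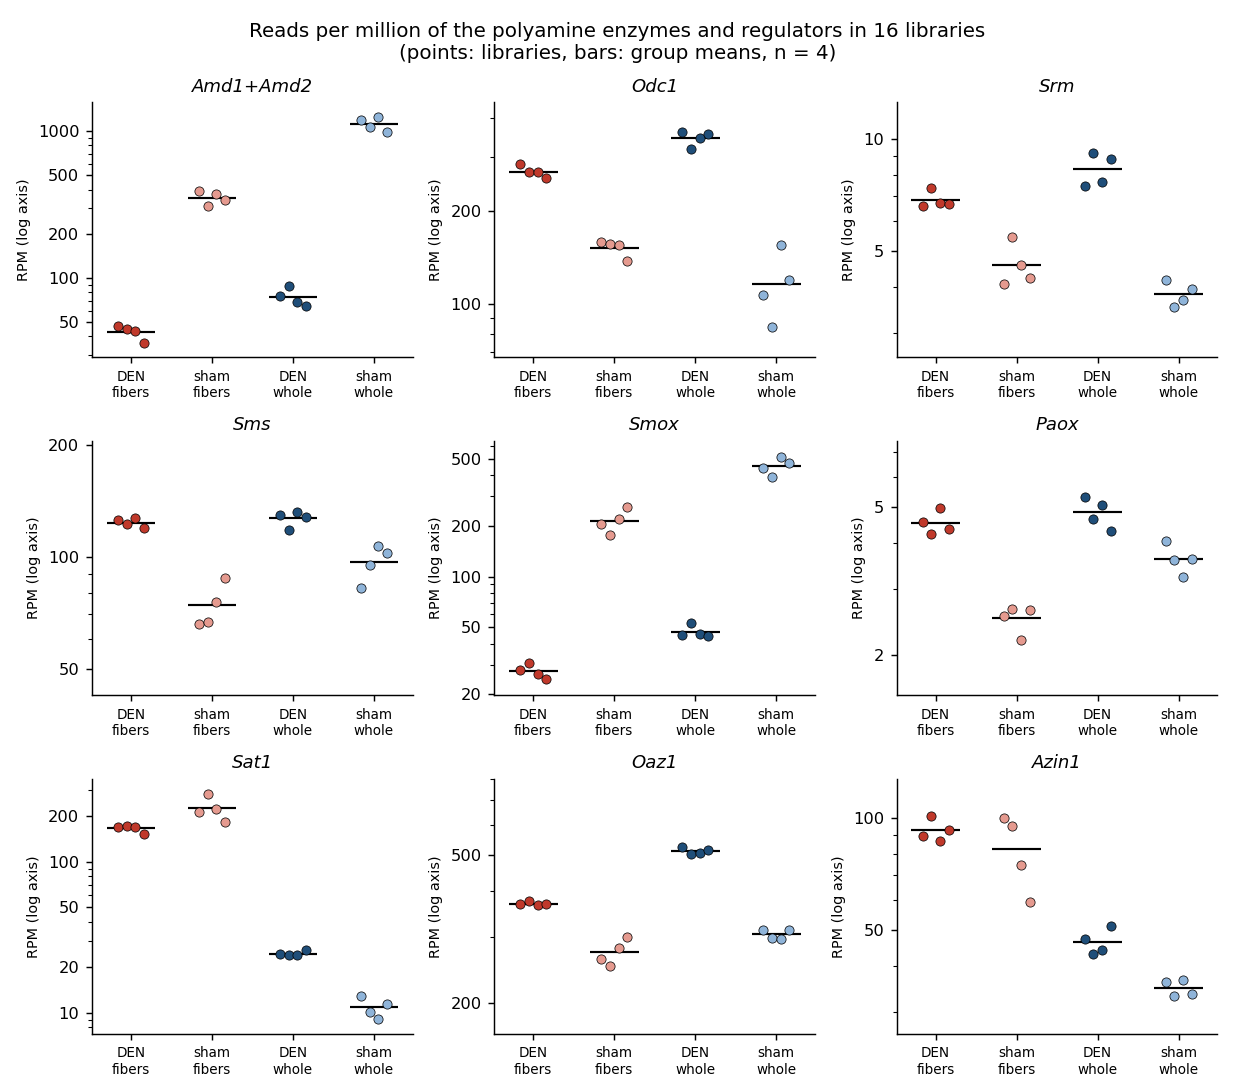
RPM (log axes, which differ between panels) of the 9 units in the 4 groups (DEN left of sham, fibers left of whole muscle), with 1 point per library and a bar at the mean of 4 libraries. Amd1+Amd2 and Smox are lower in DEN in both preparations, Odc1 is higher in both, and Sat1 is set apart by preparation, with 153 to 283 RPM in fibers and 9.09 to 25.9 RPM in whole muscle.

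Counted over the 9 units, 3 rose (Odc1, Paox and Sms), 3 fell (Amd1+Amd2, Smox and Sat1) and 3 did not pass in fibers, where 27.1% of all 16723 tested genes were called higher and 27% lower. In whole muscle 4 rose (Odc1, Sat1, Srm and Oaz1), 2 fell (Amd1+Amd2 and Smox) and 3 did not pass, where 34% of all 16378 tested genes were called higher and 32.2% lower. The share of members called was thus near that of all genes in either direction. With library totals alone 5 were called higher and 3 lower in fibers, where 9949 of all 16723 tested genes were called higher and 1493 lower. In whole muscle 7 were then called higher and 2 lower, where 9981 of all 16378 tested genes were called higher and 2273 lower. Of all genes called, 87% were then higher in fibers and 81.5% in whole muscle, against 50.1% and 51.4% with TMM. In RPM, 5 units in fibers lay above sham without overlap (54.4% of all tested genes did) and 3 below (7.76%), and 7 units in whole muscle lay above (57%) and 2 below (12.3%). The median log2 fold change of the units was -0.05 in fibers and -0.01 in whole muscle.

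**Figure D3:**
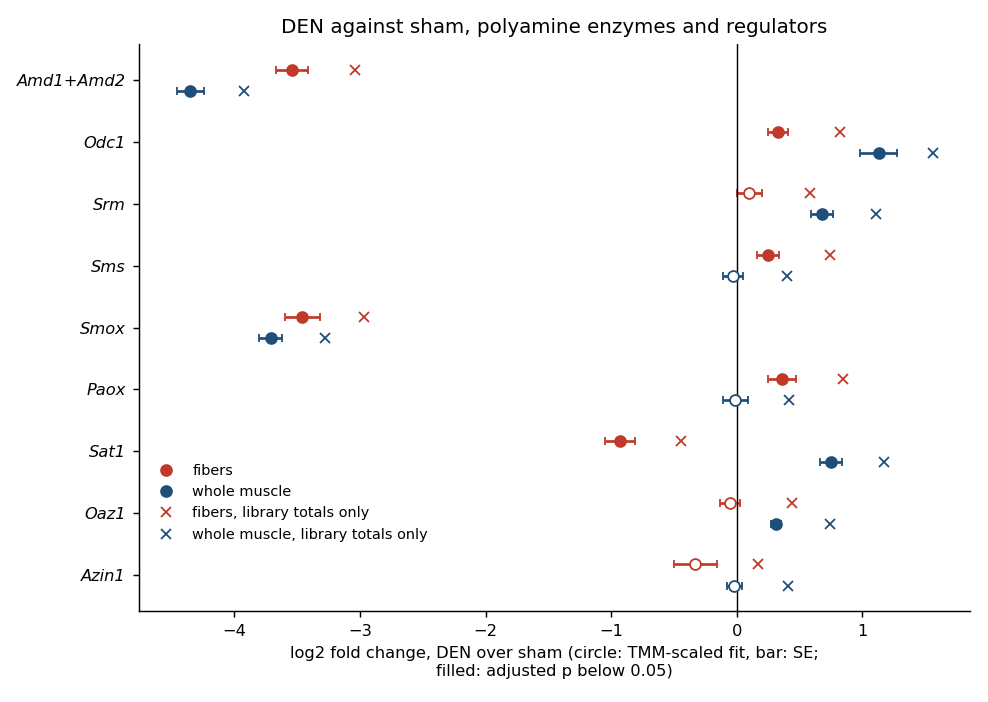
log2 fold change, DEN over sham, of the 9 units in fibers (red) and whole muscle (blue). Circles are TMM-scaled fits with their SE, filled where the adjusted p was below 0.05, and crosses are fits with library totals alone. Amd1+Amd2 and Smox lie at -2.97 or lower in each fit, and all other units lie between -0.93 and 1.56.

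Whether the response differed between fibers and whole muscle was tested as an interaction across all 16 libraries. Of the 9 units 1 was called higher and 4 lower (fiber effect minus whole muscle effect), where 7.09% of 17496 tested genes were called higher and 11.8% lower. Sat1 had the largest difference, -1.69 on the log2 scale (SE 0.15, edgeR adjusted p = 3e-06). The decrease of Amd1+Amd2 was 0.80 smaller in fibers (SE 0.16, edgeR adjusted p = 0.0034). Odc1 (-0.82, SE 0.19, adjusted p = 0.007), Srm (-0.60, SE 0.13, adjusted p = 0.0061) and Oaz1 (-0.38, SE 0.09, adjusted p = 0.0068) had a lower log2 fold change in fibers than in whole muscle. Smox (0.23, SE 0.16, adjusted p = 0.34), Paox (0.36, SE 0.14, adjusted p = 0.082), Sms (0.27, SE 0.13, adjusted p = 0.15) and Azin1 (-0.32, SE 0.20, adjusted p = 0.27) did not pass, which does not show that their responses were alike.

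Levels in fibers and whole muscle without denervation differed most for Sat1. Per length, Sat1 was at 81.6 ± 15 RPKM in sham fibers and 3.93 ± 0.61 RPKM in sham whole muscle (SD, n = 4 each), a log2 fold change of 4.35 (SE 0.16, edgeR adjusted p = 8.6e-08) or 20.4-fold. Azin1 was also higher in sham fibers (log2 fold change 1.23, SE 0.17, edgeR adjusted p = 0.00022). Amd1+Amd2 (-1.69, SE 0.12, adjusted p = 4e-06), Smox (-1.11, SE 0.13, adjusted p = 7.1e-05), Paox (-0.55, SE 0.12, adjusted p = 0.0035) and Sms (-0.41, SE 0.11, adjusted p = 0.011) were lower in sham fibers. Odc1 (0.36, adjusted p = 0.092), Srm (0.23, adjusted p = 0.1) and Oaz1 (-0.18, adjusted p = 0.055) did not pass. These were 2 units higher and 4 lower, where 25.5% of 16004 tested genes were called higher and 23.2% lower. In RPM, 2 units lay above without overlap (23.4% of all tested genes did) and 3 below (18.9%). Without whole muscle sham replicate 3, which had the highest Odc1 level of its group, the Odc1 difference was 0.54 and passed (adjusted p = 0.0075). Without sham fiber replicate 4, the Oaz1 difference was -0.22 and passed (adjusted p = 0.029).

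In denervated muscle Sat1 and Azin1 were again higher in fibers, and Amd1+Amd2 and Smox again lower. Sat1 was at 60 ± 3.3 RPKM in DEN fibers and 8.87 ± 0.32 RPKM in DEN whole muscle, a log2 fold change of 2.71 (SE 0.05, edgeR adjusted p = 1.7e-09), and Azin1 was 0.95 higher (SE 0.08, adjusted p = 5.1e-06). Amd1+Amd2 (-0.84, SE 0.10, adjusted p = 5.4e-05), Smox (-0.83, SE 0.08, adjusted p = 1.5e-05), Oaz1 (-0.51, SE 0.05, adjusted p = 1.1e-05), Odc1 (-0.40, SE 0.06, adjusted p = 0.00021) and Srm (-0.32, SE 0.09, adjusted p = 0.011) were lower in DEN fibers. Sms (-0.09, adjusted p = 0.13) and Paox (-0.14, adjusted p = 0.19) did not pass, and without whole muscle DEN replicate 2 Sms was at -0.13 and passed (adjusted p = 0.029). These were 2 units higher and 5 lower, where 30.2% of 16855 tested genes were called higher and 26.4% lower. In RPM, 2 lay above without overlap (29.9%) and 5 below (20.7%). The comparison shares its DEN libraries with those above.

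With Amd1 and Amd2 as separate rows, Oaz1 stood highest per length among the 10 genes in DEN fibers (145 ± 1.6 RPKM), sham fibers (107 ± 8.2 RPKM) and DEN whole muscle (200 ± 4 RPKM). In sham fibers Amd1 was at 84 ± 8.6 RPKM and Amd2 at 17 ± 1.7 RPKM, so the rank of Oaz1 there against both copies together is not settled. In sham whole muscle Amd1 stood above Oaz1, at 267 ± 29 RPKM against 120 ± 3.5 RPKM, while Smox was at 117 ± 13 RPKM, which overlaps Oaz1 within their SDs. Paox was the lowest member in all 4 groups, at 0.511 to 0.985 RPKM on average. Leaving aside Amd2, whose reads cannot be told from those of Amd1, Srm was the next lowest in all 4 groups, at 2.4 to 5.18 RPKM on average.

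Genes that feed, drain or use polyamines were read from 6 lists with 44 genes in all, which were chosen with earlier results of these data known. In fibers 35 could be tested (54.1% of all tested genes were called in either direction), of which 9 rose and 9 fell, and in whole muscle 34 (66.2%), of which 10 rose and 13 fell. By direction, 27.1% of all tested genes were called higher and 27% lower in fibers, and 34% higher and 32.2% lower in whole muscle. With library totals alone these counts were 22 higher and 8 lower in fibers, where 9949 of 16723 tested genes were called higher and 1493 lower. They were 22 higher and 7 lower in whole muscle, where 9981 of 16378 tested genes were called higher and 2273 lower. Counts of single lists under library totals alone, given below, are to be read beside these. From each list the 3 genes with the highest mean RPM are named, and so are Azin2, Oaz2, Atp13a3, Atp13a4, Arg1 and Oat for their role.

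The transport list held the largest changes. Of 10 genes, 3 rose, 2 fell, 3 did not pass and 2 were too low in fibers (27.1% of all tested genes rose and 27% fell). In whole muscle 3 rose, 2 fell, 2 did not pass and 3 were too low (34% of all tested genes rose and 32.2% fell). Under library totals alone, 4 were higher and 2 lower in fibers, and 5 higher and 2 lower in whole muscle. Atp13a3, a P5B-type ATPase of polyamine uptake, had 329, 301, 361 and 263 RPM in DEN fibers and 41.1, 39.9, 39.7 and 32.4 RPM in sham fibers. In whole muscle it had 324, 357, 330 and 301 RPM in DEN and 22.8, 18.9, 19.7 and 15.6 RPM in sham. The groups were far apart, with a log2 fold change of 2.54 in fibers (SE 0.11, edgeR adjusted p = 2.6e-07) and 3.66 in whole muscle (SE 0.10, edgeR adjusted p = 6.5e-10), and the interaction was -1.14 (SE 0.15, adjusted p = 0.00011).

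Atp13a4, a member of the same ATPase group, was nearly absent without denervation. It had 651, 631, 752 and 565 counts in DEN fibers and 0 counts in all 4 sham fiber libraries, and 313, 217, 331 and 237 counts in DEN whole muscle against 0, 1, 2 and 0 counts in sham whole muscle. Set against a floor of 3 counts over the sham fiber group, its level was at least 850-fold higher in DEN fibers. In whole muscle the ratio was 370, with a 95% interval of 126 to 1798 that covers counting error alone. Both ratios were scaled to library totals. With TMM the whole muscle log2 fold change was 7.92 (SE 0.42, edgeR adjusted p = 5.5e-08), a 243-fold higher level that rests on 3 sham counts. In fibers it was also called higher (edgeR adjusted p = 2.9e-07), and no TMM fold is given since sham held 0 counts. Atp13a2, which exports polyamines from lysosomes, averaged 27.1 ± 1.9 RPM in DEN fibers and 31.9 ± 0.72 RPM in sham fibers and 27.1 ± 0.71 RPM in DEN whole muscle and 43.5 ± 2.9 RPM in sham whole muscle, and fell by 0.72 in fibers (edgeR adjusted p = 2.8e-05) and by 1.11 in whole muscle (edgeR adjusted p = 1.7e-08) on the log2 scale. Atp13a5 of this list, outside the naming rule, fell further than Atp13a2. Its log2 fold change was -1.41 in fibers (SE 0.19, edgeR adjusted p = 0.0002) and -2.28 in whole muscle (SE 0.18, edgeR adjusted p = 1.1e-06). Slc3a2, the heavy chain of several amino acid transporters, had a log2 fold change of -0.08 in fibers (adjusted p = 0.52, and 0.41 with 0.011 under library totals alone) and rose by 0.39 in whole muscle (adjusted p = 0.00012).

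In the list of ornithine supply and antizymes, 2 of 9 genes rose and 2 fell in fibers (27.1% of all tested genes rose and 27% fell). In whole muscle 2 rose and 3 fell (34% of all tested genes rose and 32.2% fell). Library totals alone gave 4 higher and 2 lower in fibers, and 3 higher and 2 lower in whole muscle. Oat, which converts ornithine in mitochondria, averaged 166 ± 13 RPM in DEN fibers and 198 ± 14 RPM in sham fibers, and 154 ± 8.9 RPM in DEN whole muscle and 177 ± 12 RPM in sham whole muscle. It fell by 0.74 in fibers (edgeR adjusted p = 3.6e-05) and by 0.63 in whole muscle (edgeR adjusted p = 2e-06) on the log2 scale. Slc7a2, a carrier of arginine and ornithine, averaged 22.3 ± 2.9 RPM in DEN fibers and 47.8 ± 8.1 RPM in sham fibers, and 18.2 ± 1.7 RPM in DEN whole muscle and 40.1 ± 5.3 RPM in sham whole muscle, with log2 fold changes of -1.59 (adjusted p = 3.4e-05) and -1.57 (adjusted p = 1e-07). Arg1, the urea cycle arginase, had 2 to 13 counts per library in DEN fibers, 0 or 1 in sham fibers, 1 to 4 in DEN whole muscle and 0 or 1 in sham whole muscle and was not tested.

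The second antizyme and antizyme inhibitor genes had small differences. Oaz2 averaged 136 ± 4.4 RPM in DEN fibers and 113 ± 8.3 RPM in sham fibers, and 195 ± 7.5 RPM in DEN whole muscle and 155 ± 6.1 RPM in sham whole muscle, and its log2 fold changes of -0.23 (adjusted p = 0.058) and -0.10 (adjusted p = 0.049) became 0.26 and 0.33 with library totals alone. The whole muscle call of Oaz2 was also lost without the filter on low counts (adjusted p = 0.15) and without any single one of DEN replicates 2, 3 and 4 or sham replicate 1 (adjusted p 0.093 to 0.13), and in fibers Oaz2 passed at -0.28 without sham fiber replicate 3 (adjusted p = 0.023). Azin2 averaged 3.35 ± 0.33 RPM in DEN fibers and 1.73 ± 0.18 RPM in sham fibers and rose by 0.47 (SE 0.11, adjusted p = 0.0053), and its change was -0.13 in whole muscle (adjusted p = 0.39).

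Agmat, annotated as agmatinase, was picked out after its values were seen. DEN fiber libraries held 49 to 70 counts of it against 0 to 2 in sham fibers, and there were 148 to 227 in DEN whole muscle against 0 to 3 in sham whole muscle. With TMM its log2 fold change was 4.93 in fibers (SE 0.37, edgeR adjusted p = 5.1e-06) and 6.45 in whole muscle (SE 0.32, edgeR adjusted p = 3.3e-08). These are 30.5-fold and 87.2-fold higher levels. Scaled to library totals instead, the ratio of summed counts was 46.1 in fibers (95% counting interval 19.5 to 143) and 127 in whole muscle (57.9 to 346).

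Salvage of methylthioadenosine, the by-product of spermidine and spermine synthesis, had 0 genes called higher among its 7 by edgeR (27.1% of all tested genes were in fibers and 34% in whole muscle), 0 higher at an unadjusted p under 0.05 and 0 by DESeq2, in either preparation. In fibers 4 fell and 3 did not pass (27% of all tested genes were called lower), and in whole muscle 6 fell and 1 did not pass (32.2%), whereas with library totals alone 2 rose and 4 fell in fibers and 2 rose and 3 fell in whole muscle. Adi1, the acireductone dioxygenase, averaged 16 ± 0.98 RPM in DEN fibers and 29.7 ± 2.3 RPM in sham fibers, and 21.3 ± 1.3 RPM in DEN whole muscle and 36.4 ± 1 RPM in sham whole muscle, with log2 fold changes of -1.38 (edgeR adjusted p = 1.4e-06) and -1.21 (edgeR adjusted p = 1.2e-08). Kyat1, an aminotransferase, had log2 fold changes of -0.75 (adjusted p = 2.3e-05) and -0.98 (adjusted p = 1.4e-07). The aspartate aminotransferase Got1 had -0.28 (adjusted p = 0.052) and -0.36 (adjusted p = 0.001), and 0.20 and 0.07 with library totals alone. Without DEN fiber replicate 4 or sham fiber replicate 1, Got1 passed in fibers as well (-0.34 and -0.35, adjusted p = 0.033 and 0.022).

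The methionine cycle supplies S-adenosylmethionine. Of 7 genes of its list tested in fibers, 3 were higher, 1 was lower and 3 did not pass (27.1% of all tested genes were higher and 27% lower). The 3 higher ones were Ahcy and its relatives by name, Ahcyl1 and Ahcyl2. In whole muscle 2 were higher (Ahcy and Ahcyl2), 1 was lower and 4 did not pass (34% of all tested genes were higher and 32.2% lower). Scaled by library totals alone, 6 were higher and 0 lower in fibers, and 7 higher and 0 lower in whole muscle. Mat2a, the S-adenosylmethionine synthetase of most tissues, had a log2 fold change of -0.66 in fibers (adjusted p = 0.00011), which was -0.18 and did not pass with library totals alone (adjusted p = 0.16), and of -0.11 in whole muscle (adjusted p = 0.22). Its regulatory subunit Mat2b had -0.15 (adjusted p = 0.086) and -0.12 (adjusted p = 0.086), with 0.34 and 0.31 under library totals alone. Ahcyl1 rose by 0.25 in fibers (adjusted p = 0.0023) and had 0.10 in whole muscle (adjusted p = 0.076).

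Hypusine, a modified lysine of the translation factor Eif5a, is made from spermidine by Dhps and Dohh. Of the 4 genes of this list 0 were called in fibers by edgeR (54.1% of all tested genes were), 0 had an unadjusted p under 0.05 and 0 were called by DESeq2. With library totals alone 3 were called higher there by edgeR, Eif5a (0.50, adjusted p = 0.00012), Dhps (0.42, adjusted p = 0.003) and Dohh (0.48, adjusted p = 0.001). In whole muscle, where 34% of all tested genes were called higher and 32.2% lower, Eif5a rose and its relative Eif5a2 fell (-0.60, edgeR adjusted p = 0.0093). The Eif5a2 call was lost with library totals alone (-0.17, adjusted p = 0.4), and its RPM values overlapped, at 0.615 to 0.997 in DEN and 0.778 to 0.977 in sham. Eif5a averaged 351 ± 4 RPM in DEN fibers and 249 ± 17 RPM in sham fibers, and 447 ± 12 RPM in DEN whole muscle and 257 ± 11 RPM in sham whole muscle. Its log2 fold change was 0.01 in fibers (adjusted p = 0.91) and 0.37 in whole muscle (adjusted p = 5.3e-05). Dhps had -0.06 (adjusted p = 0.61) and 0.06 (adjusted p = 0.39), and Dohh -0.01 (adjusted p = 0.94) and 0.00 (adjusted p = 0.98).

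Of 5 genes of further catabolism, 3 could be tested in each preparation. In fibers 1 rose (27.1% of all tested genes did) and in whole muscle 2 rose (34%). By edgeR 0 fell, where 27% of all tested genes fell in fibers and 32.2% in whole muscle (0 at an unadjusted p under 0.05, and 0 by DESeq2). Library totals alone gave 3 higher in fibers and 2 in whole muscle. Sat2, a relative of Sat1, averaged 4.48 ± 0.32 RPM in DEN fibers and 2.01 ± 0.33 RPM in sham fibers, and 4.59 ± 0.25 RPM in DEN whole muscle and 2.45 ± 0.28 RPM in sham whole muscle, with log2 fold changes of 0.66 (adjusted p = 0.0059) and 0.47 (adjusted p = 0.0015). Aoc2, a copper amine oxidase, had 0.20 in fibers (adjusted p = 0.25) and rose by 0.79 in whole muscle (adjusted p = 0.012). Aoc3, a second copper amine oxidase, had 13.5, 3.84, 12.4 and 27.1 RPM in DEN fibers and 4.27, 4.1, 5.76 and 5.1 RPM in sham fibers, which overlap, with a log2 fold change of 1.08 (SE 0.46, adjusted p = 0.07) that was 1.40 and passed without DEN fiber replicate 2 (adjusted p = 0.0033). In whole muscle Aoc3 had -0.50 (adjusted p = 0.14), which was -0.73 and passed without DEN replicate 2 (adjusted p = 0.037). The summed level of 6 smooth muscle and pericyte markers was 357 to 1390 RPM in DEN fibers and 313 to 508 RPM in sham fibers, and its part in the Aoc3 values was not tested.

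**Figure D4:**
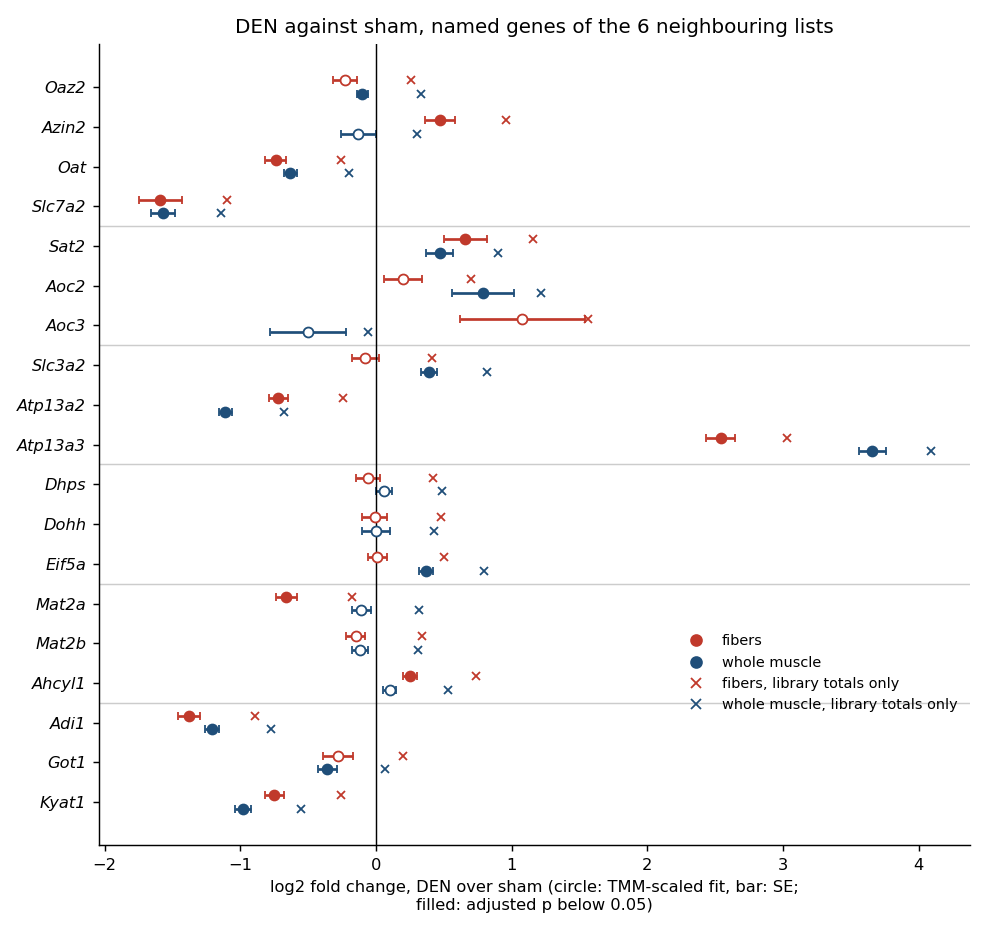
log2 fold change, DEN over sham, of the named genes of the 6 lists in fibers (red) and whole muscle (blue), with lists divided by grey lines. Circles are TMM-scaled fits with their SE, filled where the adjusted p was below 0.05, and crosses are fits with library totals alone. Atp13a3 is the highest at 2.54 in fibers and 3.66 in whole muscle, Slc7a2 is near -1.6 in both, and Atp13a4 and Arg1 are left out because their sham groups held 0 to 2 counts per library.

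The genes most like each member were sought by the correlation of log2(RPM + 1) over 16 libraries. The search covered 7560 genes with a mean of at least 10 RPM. It left out the members and predicted genes, whose names are Gm with a number or end in Rik. The libraries fall into 4 groups, so these values reflect the order of the group levels, and no p is given. For Amd1+Amd2 the closest were Amd-ps3 (r = 0.997) and Amd-ps4 (0.993), which share reads with it, and Cacng7 (0.989), at 4.21 RPM in DEN fibers and 13.1 RPM in sham fibers, and 5.28 RPM in DEN whole muscle and 20.9 RPM in sham whole muscle. For Smox they were Slc16a3 (0.990), Gpd1 (0.989) and Asb2 (0.989), the first at 56.7 RPM in DEN fibers and 288 RPM in sham fibers, and 71.9 RPM in DEN whole muscle and 465 RPM in sham whole muscle. For Odc1 they were Sqstm1 (0.971), Nabp1 (0.967) and Ugcg (0.965), the first at 971 RPM in DEN fibers and 685 RPM in sham fibers, and 1244 RPM in DEN whole muscle and 540 RPM in sham whole muscle. For Sat1 they were Ccnl1 (0.995), Btg2 (0.994) and Zc3h12a (0.993), and Btg2 was at 421 RPM in DEN fibers and 842 RPM in sham fibers, and 49.2 RPM in DEN whole muscle and 18.5 RPM in sham whole muscle.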

How the data were processed

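PolyA RNA of 16 libraries was prepared with a directional kit and sequenced single-end. Per the labels, the authors used bcl2fastq 2.20.0.422, cutadapt 2.1, TopHat2 2.1.0 and featureCounts 1.6.5 on GRCm38, and kept 1 alignment per read. The deposited table held read counts per gene, the deposited RPM were these counts scaled to the library total (recomputed to within 5.1e-11), and the deposited RPKM were scaled by gene length, whose definition is not given in the sources used here.

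Groups came from the sample titles. Counts were tested with edgeR 4.0.16 (R 4.3.3) by the quasi-likelihood F-test with TMM factors, filterByExpr at a minimum count of 10, Amd1 and Amd2 as 1 row and Benjamini-Hochberg adjustment over all tested genes at 0.05. Each comparison of 2 groups used its own 8 libraries, and the interaction used 16. The script was tested on simulated data. The SE is the log2 fold change over the root of F. The Amd2 share was tested with scipy 1.17.1. The members and lists were chosen with earlier results of these data known. Named genes were the 10 members, the 3 of highest mean RPM in each of 6 lists, and Azin2, Oaz2, Atp13a3, Atp13a4, Arg1 and Oat. Replicates differed beyond sampling noise. Shared sequence was counted as windows of the read length along annotated exons (GENCODE, GRCm38) that occur in another gene, and rows sharing at least 10 windows, with rows named as pseudogenes of a member, were the copies. Alternatives were library totals alone, DESeq2 size factors, the DESeq2 Wald test (here version 1.42.0, and the study also tested with DESeq2), no filter, the replicate number as a block, 1 fit for all libraries, separate Amd rows, pseudogene rows added (chosen after seeing the data), and leaving out each library.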

Additional observations from a re-analysis of the deposited data

Results flagged for a closer look

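Of 44 groups of 4 libraries examined (10 genes and the Amd sum in 4 groups), 3 held a library far from the rest of its group, where chance flags about 1 in 20. Amd2 was at 5.28 RPM in 1 DEN fiber library against 6.65 to 6.89 RPM in the other three. Odc1 was at 138 RPM in 1 sham fiber library against 156 to 159 RPM in the others. Smox was at 52.9 RPM in 1 DEN whole muscle library against 44.3 to 45.5 RPM in the others.

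The effect of denervation differed between fibers and whole muscle for 5 units by the interaction test, with fiber minus whole muscle differences on the log2 scale of 0.80 for Amd1+Amd2, -0.82 for Odc1, -0.60 for Srm, -1.69 for Sat1 and -0.38 for Oaz1. Among the named genes of the 6 lists the same test passed for Atp13a3 (-1.14), Slc3a2 (-0.49), Atp13a2 (0.37), Eif5a (-0.37), Mat2a (-0.57) and Azin2 (0.58), with edgeR adjusted p of 0.00011, 0.0095, 0.0086, 0.0029, 0.0035 and 0.021. The EDL and the TA, the digestion and the cells retained cannot be told apart in these differences.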

How the results depend on the processing

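Amd1+Amd2 and Smox were lower in DEN in both preparations under all alternatives run, and without any single library their log2 fold changes were -3.61 to -3.44 and -3.55 to -3.35 in fibers and -4.43 to -4.29 and -3.8 to -3.66 in whole muscle. Library totals alone gave 5 members higher in fibers (9949 of 16723 tested genes were) and 7 in whole muscle (9981 of 16378). They turned Oaz1 (0.44), Oaz2 (0.26), Slc3a2 (0.41), Dhps (0.42), Dohh (0.48), Mat2b (0.34) and, without a call in either fit, Azin1 (0.17) and Got1 (0.20) in fibers, and Sms (0.40), Paox (0.42), Azin1 (0.41), Oaz2 (0.33), Mat2a (0.32), Mat2b (0.31), Got1 (0.07) and, without a call in either fit, Azin2 (0.30) in whole muscle, by construction, since the median of all genes then stood at 0.49 and 0.45. One fit for all 16 libraries called 4 members higher in sham fibers than in sham whole muscle (Odc1 and Srm in addition to Sat1 and Azin1) and Oaz1 lower. It also called Azin1 (-0.33, edgeR adjusted p = 0.047), Oaz2 (-0.23), Aoc3 (1.08), Mat2b (-0.15) and Got1 (-0.29) between DEN and sham in fibers, and in whole muscle it called Ahcyl1 (0.11) and lost Oaz2 (-0.09). Amd1 and Amd2 as separate rows gave 2 genes higher in the interaction, both of them Amd. Without 1 library, members called higher numbered 2 to 3 in fibers, 4 in whole muscle, 2 to 3 between sham preparations, 2 between DEN preparations and 1 to 2 in the interaction, and members called lower 3 to 4, 2, 4 to 5, 5 to 6 and 4. The second gene in the interaction was Paox without sham fiber replicate 1, whole muscle DEN replicate 1 or whole muscle sham replicate 3, and Sms without sham fiber replicate 4 or whole muscle sham replicate 1. The Amd2 share difference was -0.666 to -0.402 in fibers and 0.037 to 0.205 in whole muscle.

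Same-numbered libraries were not treated as pairs, since the labels name no shared animal. Of 16 pairs in the 4 comparisons, 8 correlated above 0.1 (range -0.129 to 0.389). Between EDL fibers and TA whole muscle, replicates 1 to 4 correlated at 0.272, 0.336, -0.115 and 0.157 in sham. In DEN the same pairs were at 0.199, -0.0423, -0.00541 and 0.358. These values do not decide whether an EDL and a TA came from the same mouse. With the replicate block the calls of all genes went to 9346 in fibers and 10479 in whole muscle, against 9045 and 10843 without it, and of the 45 member results 1 changed its call, Oaz1 between sham fibers and sham whole muscle (-0.19, adjusted p = 0.041). Among named list genes, the block called Oaz2 (-0.22), Mat2b (-0.15) and Got1 (-0.28) in fibers and lost Oaz2 (-0.10) in whole muscle.

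The depth of 47570214 counts or more left no member near the floor. The main limits are the reads that copies share, the scaling of small changes, and the design, which has 1 time point.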
